A study of Mus musculus with 53 samples.

Results

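Banding of the ascending aorta was compared with sham surgery in the ribosome-bound RNA of adult mouse heart. The comparison covered 9865 genes of the 34306 in the deposited table: those at 1 RPKM or more (read counts divided by transcript length and by library depth) in at least 2 of the 4 libraries compared. These 4 were 2 libraries from banded and 2 from sham-operated hearts of the CAG line. TRAP, translating ribosome affinity purification, pulls down tagged ribosomes together with the mRNA they hold. In the CAG line the TRAP tag is described as ubiquitous, present in every cell lineage, so the RNA is drawn from all cell types of the heart. The animals were adult males. In the banded group a silk ligature was tied around the ascending aorta over a needle that was then withdrawn, which leaves a fixed narrowing, and in the sham group the same operation was done with no tie. Both groups carried the same CAG TRAP allele, and the genetic background, given as 129/C57BL mixed for an earlier deposit of this line, was not stated for these libraries. The labels do not say how long after surgery the hearts were taken. The RNA was pooled before library construction, and the number of hearts in each pool was not given, so every p-value measures only the spread between libraries, which may be technical. Input RNA, the total cytoplasmic RNA, was sequenced from 2 sham and 2 banded pools, and a single TRAP library came from unoperated CAG hearts.

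A narrowed aorta raises the pressure against which the left ventricle ejects. Cardiomyocytes respond by enlarging. They switch on natriuretic peptides and other fetal genes, remodel the Z-disc and the cytoskeleton, and in time lower genes of excitation and fuel oxidation, while fibroblasts and immune cells take part in the repair of the tissue. Ribosome-bound RNA reports the mRNAs on ribosomes, which is closer to protein synthesis than total RNA but is not a measure of protein.

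The 4 TRAP libraries held 35411590 and 41816186 reads in sham and 37940589 and 47591033 in band, recovered from the whole-read steps of the RPKM values. Cardiomyocyte markers dominated them: the summed level of 20 markers was 128900 to 134000 RPKM in sham and 131200 to 135500 in band, and no marker was at 0 in all 4. Mitochondrially encoded RNA, which is translated on mitochondrial ribosomes, was 0.147% and 0.293% of the reads in sham TRAP and 0.138% and 0.0588% in band TRAP, against 13.7% to 15.9% in the 4 input libraries. Summed over 8 atrial myocyte genes, the level was 102 to 157 RPKM in the 4 operated TRAP libraries and 8056 in the unoperated one, so the unoperated values given below come from a library with far more atrial RNA. The 2 band libraries differed from each other more than the 2 sham libraries. The median absolute difference on the scale log2(RPKM + 1), used for all changes below, was 0.21 between the band libraries and 0.10 between the sham libraries. Of the genes tested, 352 differed by more than 1 between the band libraries, and 329 of these were higher in band 1.

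The ribosome-bound level of 483 genes differed between band and sham, with 278 higher and 205 lower in band. By the distance between the groups the rises were led by Ankrd2, Gm12337, Itgb1bp3, Timp1 and Fhl1, and the falls by Gm10263, Snhg9 and Gm13772. The calls came from limma, fitted to all 12 libraries of the table so that every group shared 1 estimate of the spread, at a Benjamini-Hochberg adjusted p under 0.05 over all genes tested. This was 2.82% of the genes tested for the rise and 2.08% for the fall. Of the 278 higher genes, 19 reached 1 RPKM only in the band libraries, as did 106 of all genes tested. Of the 205 lower genes, 15 reached it only in the sham libraries, as did 91 of all genes tested. Those genes entered the test through the group where they were high. Fewer changes were large: 63 genes rose and 29 fell by more than 1 on the log2 scale. With the spread taken from the 4 TRAP libraries alone, 10 genes were called higher (0.101%) and 3 lower (0.0304%), with 691 and 612 at an unadjusted p under 0.05. In a fit with a spread per group, each group got 1 weight over all genes, 0.273 for band TRAP and 1.48 for sham TRAP. There 83 genes were called higher (0.841%) and 45 lower (0.456%). Each gene kept 1 spread shared by the groups, in which a wide band pair counted for less. This fit called fewer genes but was not stricter for each: the limma adjusted p of Gm13772 went from 0.00539 to 0.00185. Genes called under that weighting are pointed out below. Leaving out sham 1 left 28 genes higher and 10 lower, and leaving out sham 2 left 30 and 13. Leaving out band 1 gave 610 and 1183, and leaving out band 2 gave 1148 and 948. The higher counts without a band library arise in a fit whose shared spread no longer contains the widest pair.

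Each band library was also set alone against the sham mean. Band 1 lay above it by more than 1 in 109 genes and below it by more than 1 in 75, and band 2 in 67 and 199. Both band libraries were beyond 1 together in 49 genes above and 20 below. All of the 278 higher and 205 lower genes had both band libraries on the same side of both sham libraries. Fits with a single band library cannot check the 2 against each other, since their shared spread no longer contains the widest pair. The plain criterion that both band libraries lie on the same side of both sham libraries was met far more often, by 2213 genes upward (22.4%) and 2303 downward (23.3%), and is not used as evidence of change. The plot of band 1 against band 2 shows the called genes along the diagonal and a tail of genes low only in band 2.

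**Figure D1:**
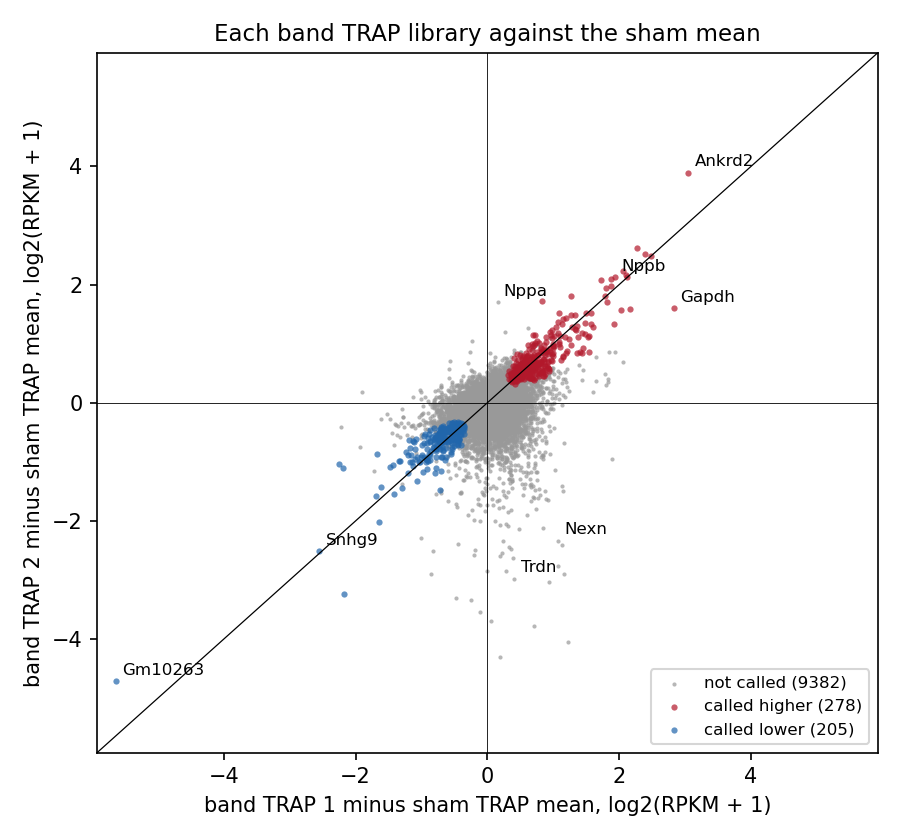
Change of each of the 9865 genes in band TRAP 1 (horizontal axis) and band TRAP 2 (vertical axis) against the mean of the 2 sham TRAP libraries, on the log2(RPKM + 1) scale, with 278 genes called higher in red and 205 called lower in blue. The called genes lie near the diagonal from Gm10263 at the lower left to Ankrd2 at the upper right, and Trdn and Nexn lie in the tail that is low in band 2 alone.

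When the genes that rose were ranked by the distance between the nearest band and sham libraries, the first was Ankrd2, a muscle ankyrin repeat protein of the sarcomere's I-band that responds to stretch. Ankrd2 stood at 1.21 and 0.848 RPKM in the sham and 15.7 and 29.04 RPKM in the band libraries, a 21.8-fold higher mean and a change of 3.47 ± 0.27 (SE) on the log2 scale (limma adjusted p = 0.00191). Band 2 was higher than band 1, and both were far above sham and above the 0.287 RPKM of the unoperated library. In the 4 TRAP libraries alone its adjusted p was 0.0813, so Ankrd2 was not called there.

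Nppb, which encodes the natriuretic peptide BNP released by strained myocytes, was the most abundant of the named genes that rose. Its level was 1512 and 1583 RPKM in the sham and 5925 and 6735 RPKM in the band libraries, a change of 2.03 ± 0.10 (adjusted p = 0.000347), and the unoperated library at 1879.7 RPKM lay near sham. Fhl1, a LIM domain protein that binds titin and takes part in sensing load, stood at 27.96 and 29.6 RPKM in the sham and 127 and 132 RPKM in the band libraries, a change of 2.13 ± 0.11 (adjusted p = 0.000347). The 2 libraries of each group were nearly equal for Fhl1, and the groups were 4.50-fold apart.

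Itgb1bp3 (Nmrk2 in RefSeq), a nicotinamide riboside kinase that feeds NAD synthesis, was at 0.460 and 0.533 RPKM in the sham and 6.20 and 8.23 RPKM in the band libraries and changed by 2.45 ± 0.13 (adjusted p = 0.000383). Because both sham libraries were under 1 RPKM, Itgb1bp3 entered the test only through the band libraries. Timp1, a secreted inhibitor of matrix metalloproteinases, was at 7.84 and 10.05 RPKM in the sham and 50.8 and 55.8 RPKM in the band libraries, and changed by 2.46 ± 0.13 (adjusted p = 0.000347). Uck2, a uridine-cytidine kinase of pyrimidine salvage, was at 10.8 and 9.45 RPKM in the sham and 39.6 and 46.2 RPKM in the band libraries, and changed by 1.98 ± 0.11 (adjusted p = 0.000383). For all 3 both band libraries lay several-fold above both sham libraries.

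Synpo2l, a Z-disc protein that interacts with alpha-actinin, was at 14.97 and 14.1 RPKM in the sham and 53.9 and 49.8 RPKM in the band libraries (change 1.76 ± 0.08, adjusted p = 0.000347). Saa3, an acute phase apolipoprotein, was at 1.12 and 0.946 RPKM in the sham and 7.50 and 8.55 RPKM in the band libraries (change 2.15 ± 0.15, adjusted p = 0.00146), above the 0.218 RPKM of the unoperated library. Dusp26, a dual specificity phosphatase, was at 1.02 and 0.790 RPKM in the sham and 5.54 and 5.66 RPKM in the band libraries (change 1.79 ± 0.14, adjusted p = 0.00191). These 3 genes showed the same separation of band from sham at middle and low levels.

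The remaining 3 of the 12 genes named as higher carry gene model symbols. Gm12337 was at 2.05 and 1.38 RPKM in the sham and 14.04 and 14.1 RPKM in the band libraries, 4930412F15Rik at 12.2 and 8.56 RPKM in the sham and 47.99 and 47.9 RPKM in the band libraries, and Gm10086 at 17.3 and 16.5 RPKM in the sham and 61.4 and 68.1 RPKM in the band libraries. The sham libraries were below both band libraries for each, but none of the 3 was called with a spread per group, without sham 1 or without sham 2. The other 9 named genes were called with a spread per group and in each of the 4 fits that left out a library. With the 4 TRAP libraries alone, 10 of the 12 were called, all but Ankrd2 and 4930412F15Rik.

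**Figure D2:**
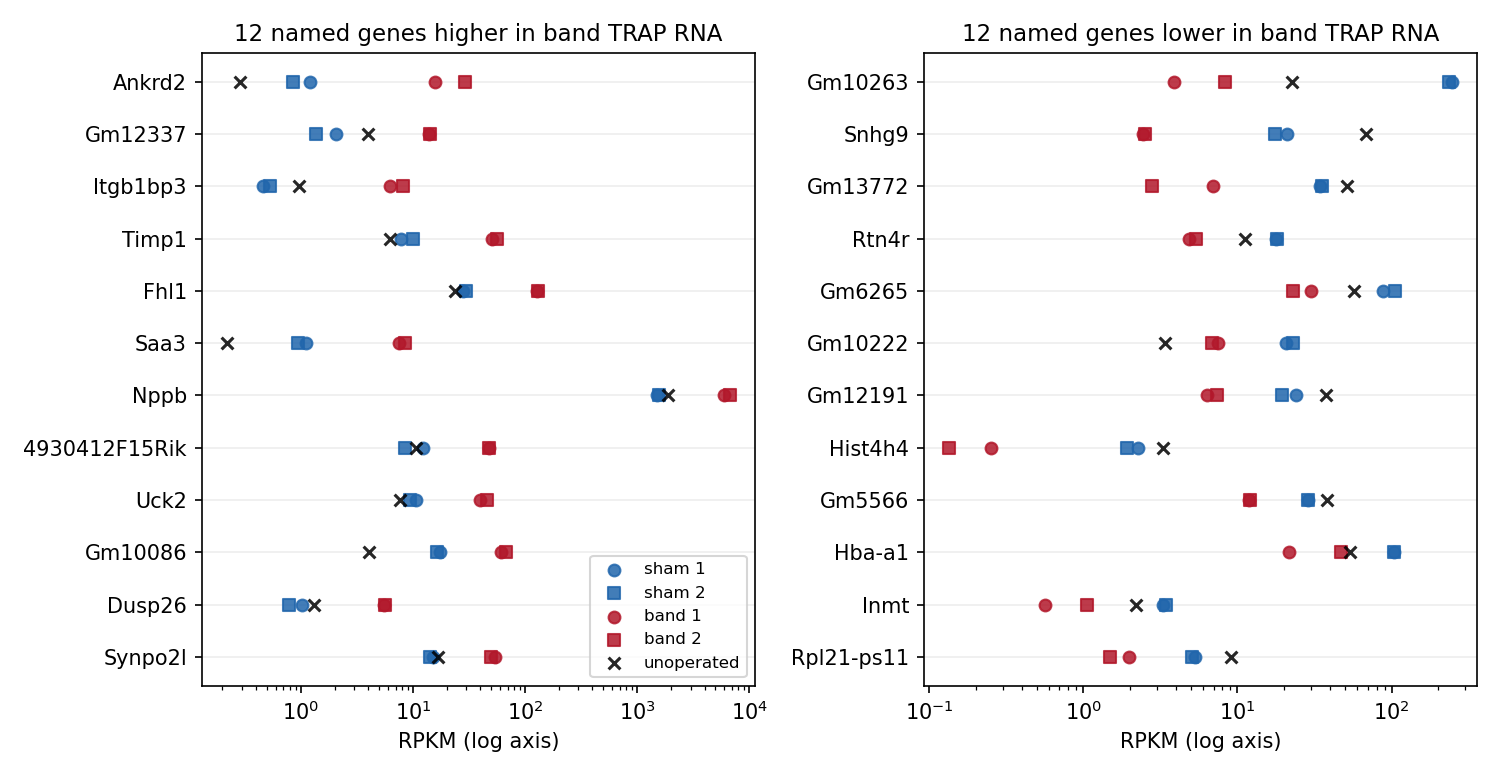
RPKM (log axis) of the 12 named genes that rose (left) and the 12 that fell (right) in each TRAP library: sham in blue, band in red (circles library 1, squares library 2), unoperated as black crosses. Red and blue points do not overlap in any row, since the genes were ranked by that gap, and Nppb is the most abundant gene at about 1512 to 6735 RPKM.

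Promoter sequence was available from RefSeq (GRCm38.p6 coordinates) for 9 of the 12 named higher genes, in 11 windows from 250 bases before to 50 after an annotated start, and 4 of the windows that hold a motif of muscle or stress genes are shown. Both strands were searched for the M-CAT element bound by TEAD factors (CATTCC), the AP-1 element (TGANTCA) and the E-box of helix-loop-helix factors (CACGTG). The CArG box of serum response factor and the MEF2 site were searched too. For the cardiac GATA factors only the letters GATAAG were searched. Other letters around GATA were not counted, and the Nppb window below holds GATA as TGATAA and AGATAA. None of the matches overlapped another in the windows shown. The 250 bases before the start are printed 5′ to 3′ on the gene's strand, with the matched letters in capitals.
Nppb (chr4:147985650-147985899, plus strand): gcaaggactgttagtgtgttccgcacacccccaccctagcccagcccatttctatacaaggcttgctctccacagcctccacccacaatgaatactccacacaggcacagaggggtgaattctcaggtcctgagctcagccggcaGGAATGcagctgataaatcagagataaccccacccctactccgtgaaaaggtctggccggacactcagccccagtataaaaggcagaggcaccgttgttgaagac
Timp1 (chrX:20869916-20870165, plus strand): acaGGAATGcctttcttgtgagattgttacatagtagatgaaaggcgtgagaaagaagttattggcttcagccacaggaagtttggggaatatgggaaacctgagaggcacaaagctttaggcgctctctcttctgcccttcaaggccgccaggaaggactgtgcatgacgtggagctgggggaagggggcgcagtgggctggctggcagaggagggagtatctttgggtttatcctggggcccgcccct
Fhl1 (chrX:56779433-56779682, plus strand): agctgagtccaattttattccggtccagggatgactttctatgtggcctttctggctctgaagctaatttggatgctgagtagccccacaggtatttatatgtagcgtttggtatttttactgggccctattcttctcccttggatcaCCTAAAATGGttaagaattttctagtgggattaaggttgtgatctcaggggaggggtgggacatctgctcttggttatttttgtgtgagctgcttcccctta
Synpo2l (chr14:20668355-20668604, minus strand): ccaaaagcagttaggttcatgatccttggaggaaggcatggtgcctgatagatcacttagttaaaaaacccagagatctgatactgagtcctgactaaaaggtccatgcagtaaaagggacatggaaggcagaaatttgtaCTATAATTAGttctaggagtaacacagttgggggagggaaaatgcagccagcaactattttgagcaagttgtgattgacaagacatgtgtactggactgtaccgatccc
The capitals mark an M-CAT match 105 bases before the start of Nppb and 247 before that of Timp1, a CArG match 102 bases before the start of Fhl1, and a MEF2 match 109 bases before that of Synpo2l. M-CAT letters were in 3 of the 11 windows of named genes (27.3%), the third being that of 4930412F15Rik, beside 14.7% of all 32851 windows. CArG and MEF2 were in 1 window each (9.09%), beside 1.63% and 0.557% of all windows. AP-1, GATAAG and E-box letters were in none, beside 7.81%, 7.44% and 7.15%. Over the 187 called higher genes with a window, M-CAT was in 16.2% of 228 windows, beside 12.3% of the 9100 windows of tested genes and 14.7% of all windows. AP-1 was in 8.33%, beside 4.93% and 7.81%, and MEF2 in 2.19%, beside 0.615% and 0.557%. GATAAG letters were in 3.07%, beside 5.22% and 7.44%, and CArG in 1.32%, beside 1.43% and 1.63%. E-box letters were in 22 of the 228 windows, beside 911 of the 9100 and 2349 of the 32851. These are matches of letters, with no measurement of binding behind them.

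The genes that fell included short gene models and pseudogenes. Of the 12 named as lower, 7 carry gene model or pseudogene symbols, and over all 205 lower genes 64 do, against 46 of the 278 higher genes and 16.6% of the genes tested. Gm10263 was at 248 and 237 RPKM in the sham and 3.89 and 8.30 RPKM in the band libraries, a change of -5.17 ± 0.27 (adjusted p = 0.000369), and at 22.7 RPKM in the unoperated library. Such short models can share reads with near-identical copies, so the identity of the transcript is uncertain. In input RNA Gm10263 was at 123 and 134 RPKM in sham against 3.66 and 4.74 RPKM in band. Its level also varied without surgery: 36.4 RPKM in unoperated CAG input, and 605 RPKM in input and 2866 RPKM in TRAP RNA of another unoperated line, Tie2. A difference between pools apart from banding was not tested. Gm13772 was at 34.6 and 35.2 RPKM in the sham and 6.98 and 2.78 RPKM in the band libraries, Gm6265 at 88.4 and 105 RPKM in the sham and 30.1 and 23.1 RPKM in the band libraries, and Gm10222 at 20.5 and 22.8 RPKM in the sham and 7.45 and 6.79 RPKM in the band libraries. Gm12191, Gm5566 and the pseudogene Rpl21-ps11 were also lower in both band libraries, Gm5566 at 28.5 and 28.8 RPKM in sham against 11.9 and 12.1 RPKM in band.

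Rtn4r, the receptor for the myelin protein Nogo, was at 17.9 and 18.1 RPKM in the sham and 4.88 and 5.39 RPKM in the band libraries, a change of -1.63 ± 0.08 (adjusted p = 0.000347). Both sham values were nearly equal, and the unoperated library was at 11.1 RPKM, between sham and band. Snhg9, a noncoding host gene of a small nucleolar RNA, was at 20.8 and 17.6 RPKM in the sham and 2.45 and 2.53 RPKM in the band libraries, a change of -2.53 ± 0.12 (adjusted p = 0.000347), and stood highest in the unoperated library at 68.2 RPKM. Rtn4r, Snhg9 and Gm10263 were the 3 lower genes called in the 4 TRAP libraries alone. Inmt, an amine N-methyltransferase, was at 3.28 and 3.46 RPKM in the sham and 0.563 and 1.05 RPKM in the band libraries (change -1.29 ± 0.15, adjusted p = 0.00704). Hist4h4, a histone H4 gene, was at 2.26 and 1.92 RPKM in the sham and 0.253 and 0.135 RPKM in the band libraries, where it rested on 3 and 2 reads. It entered the test only through the sham libraries, and with Gm12191 it was not called with a spread per group. Only 5 of the 12 named lower genes were called in all 4 fits that left out a library: Gm10263, Snhg9, Rtn4r, Gm10222 and Gm5566.

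Of 4 globin genes tested, whose RNA is made by red cell precursors and carried in blood, 3 fell and none rose, where 2.08% of all genes tested fell. Hba-a1 was at 103 and 103 RPKM in sham against 21.7 and 47.3 RPKM in band, Hbb-b2 at 18.2 and 17.5 RPKM in sham against 5.999 and 8.04 RPKM in band and Hbb-b1 at 60.2 and 64.6 RPKM in sham against 25.98 and 34.4 RPKM in band, and all 3 were called in the shared fit and with a spread per group (adjusted p = 0.0344, 0.00612 and 0.0137 in the shared fit). None of the globin genes was called without sham 1, without sham 2 or in the 4 TRAP libraries alone. Hba-a2, at 21.5 and 20.2 RPKM in sham against 7.85 and 19.4 RPKM in band, was not called. The sum over 7 erythroid markers was 204 to 206 RPKM in sham and 61.7 to 110 in band, and globin reads were 0.0144% and 0.0146% of the sham libraries and 0.0044% and 0.00763% of the band libraries. In input RNA Hba-a1 was far higher, at 1264 and 1235 RPKM in sham against 731 and 910 RPKM in band, and was not called. Of the 4 globin genes, 1 was called lower in input, where 1.76% of all genes tested were, and their median change there was -0.58. How much of the globin RNA in the TRAP libraries was held by ribosomes was not tested. In tissue RNA, fewer cells of a type and less RNA per cell cannot be told apart.

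Genes linked to pressure overload came next. From 26 genes that have been reported higher under pressure overload, 22 were tested, of which 17 rose (2.82% of all genes tested did) and none fell, with a median change of 1.09 beside -0.02 over all genes tested. The list was drawn up with earlier results of these data known, so its direction is not independent evidence. Spp1, Itgb1bp3 and Fstl3 were tested only because they passed 1 RPKM in band. With a spread per group 13 of the 17 were called, with the 4 TRAP libraries alone 4, and without sham 1 or without sham 2 it was 8 each time. Ankrd1, the cardiac ankyrin repeat protein that binds titin and also acts in the nucleus, was at 885 and 799 RPKM in the sham and 2176 and 1819 RPKM in the band libraries (change 1.24 ± 0.13, adjusted p = 0.00523). Ctgf, a matricellular growth factor that drives fibrosis, was at 7.10 and 7.40 RPKM in the sham and 23.00 and 17.1 RPKM in the band libraries, and Tnfrsf12a, the receptor for the cytokine TWEAK, at 71.7 and 75.4 RPKM in the sham and 178 and 207 RPKM in the band libraries. Serpina3n, a serine protease inhibitor of the acute phase, was at 22.96 and 20.97 RPKM in the sham and 58.2 and 55.2 RPKM in the band libraries (change 1.33 ± 0.08, adjusted p = 0.000763). The unoperated library held 2.28 RPKM of Serpina3n, under both sham values.

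Several classic markers of the fetal gene programme did not pass the test. Nppa, which encodes the natriuretic peptide ANP, was at 182 and 167 RPKM in the sham and 194 and 571 RPKM in the band libraries, so band 2 alone stood apart and band 1 lay just above sham (change 0.93 ± 0.47, adjusted p = 0.312). Skeletal alpha-actin, Acta1, was at 1209.6 and 1239.9 RPKM in the sham and 1617 and 2205 RPKM in the band libraries, higher in both band libraries but not called (change 0.62 ± 0.18, adjusted p = 0.107). The beta myosin heavy chain gene Myh7 was at 463 and 441 RPKM in the sham and 382 and 536 RPKM in the band libraries, where sham lay between the band values (change 0.00 ± 0.15, adjusted p = 0.996). Xirp2, an actin-binding protein of the intercalated disc, and Postn, a matricellular protein of activated fibroblasts, were not called either, Postn at 0.927 and 1.23 RPKM in sham against 2.72 and 0.936 RPKM in band.

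Of 33 sarcomere and Z-disc genes tested, 10 rose and none fell, where 2.82% of all genes tested rose. With a spread per group 9 of the list were called, without sham 1 or without sham 2 it was 5 each time, and in the 4 TRAP libraries alone 2. Besides Ankrd1, Ankrd2, Fhl1 and Synpo2l, these included Myot (myotilin), which crosslinks actin at the Z-disc, at 5.09 and 4.91 RPKM in the sham and 17.2 and 13.7 RPKM in the band libraries (change 1.44 ± 0.12, adjusted p = 0.00202). Flnc, the muscle filamin, was at 8.22 and 8.52 RPKM in the sham and 20.4 and 24.4 RPKM in the band libraries (change 1.32 ± 0.10, adjusted p = 0.00175). Csrp3, the muscle LIM protein, and Actc1, cardiac alpha-actin, rose from a high level: Csrp3 was at 3964 and 3878 RPKM in the sham and 6382 and 6894 RPKM in the band libraries, and Actc1 at 3909.8 and 3759.7 RPKM in the sham and 6365 and 6197 RPKM in the band libraries. The main myosin and troponin genes had no call, with Myh6 at 1796 and 1721 RPKM in sham against 1336 and 1763 RPKM in band, Tnnt2 at 20312 and 18905 RPKM in sham against 20287 and 23378 RPKM in band and Mybpc3 at 427 and 426 RPKM in sham against 413 and 474 RPKM in band. Tcap, the titin cap protein, was lower in both band libraries at 4730.1 and 4411 RPKM in sham against 2639.9 and 3478 RPKM in band, short of the threshold (change -0.59 ± 0.15, adjusted p = 0.0797).

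Of 26 genes tested in the cytoskeleton and adhesion list, 12 rose and none fell, where 2.82% of all genes tested rose. The median change was 0.45, and 6 were called with a spread per group. Tubulins made up 5 of the 12: Tubb6 was at 7.96 and 7.87 RPKM in the sham and 16.7 and 17.95 RPKM in the band libraries (change 1.04 ± 0.08, adjusted p = 0.00175), Tubb2a at 5.76 and 6.33 RPKM in the sham and 12.9 and 15.6 RPKM in the band libraries (change 1.11 ± 0.12, adjusted p = 0.00507), and Tuba1a, Tubb2b and Tubb5 changed by 0.79, 0.54 and 0.40. The cytoplasmic actin Actb was at 262 and 249 RPKM in the sham and 452 and 412 RPKM in the band libraries (change 0.75 ± 0.10). Itga5, the fibronectin receptor subunit, rose with Itga7, the laminin receptor subunit of muscle, by 0.83 and 0.60. Tubulin and actin genes have close paralogs and pseudogenes whose reads the counting may have split. Without sham 1 or without sham 2 the count for this list was 2 each time, and in the 4 TRAP libraries alone it was 0.

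Small heat shock proteins, which keep filaments and other proteins from aggregating, accounted for every call among 23 cytosolic chaperones. These 3 calls were rises, where 2.82% of all genes tested rose. Hspb1 was at 214 and 207 RPKM in the sham and 466 and 562 RPKM in the band libraries (change 1.28 ± 0.11, adjusted p = 0.00243), Hspb7 at 1384 and 1479 RPKM in the sham and 2199 and 2287 RPKM in the band libraries (change 0.65 ± 0.08, adjusted p = 0.00847) and Cryab (alpha-B crystallin) at 2083 and 2063 RPKM in the sham and 2944 and 3172 RPKM in the band libraries (change 0.56 ± 0.08, adjusted p = 0.0106). All 3 were called with a spread per group, 1 without sham 1 or without sham 2, and none in the 4 TRAP libraries alone. Among 18 chaperones of the endoplasmic reticulum only Manf rose (change 0.53 ± 0.10, adjusted p = 0.0386), and it was not called with a spread per group.

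Of 14 inflammatory and acute phase genes tested, 10 rose and none fell, where 2.82% of all genes tested rose. Their median change was 1.07. This list too was drawn up with earlier results of these data known. It shares Timp1, Spp1 and Serpina3n with the pressure overload list, so the 2 counts are not separate evidence. With a spread per group 7 of the list were called, without sham 1 or without sham 2 it was 4 each time, and in the 4 TRAP libraries alone 2. Ccl2, the chemokine that draws monocytes, was at 0.721 and 1.20 RPKM in the sham and 5.41 and 7.17 RPKM in the band libraries (change 1.89 ± 0.17, adjusted p = 0.00252). Spp1 (osteopontin) was at 0.244 and 0.286 RPKM in the sham and 2.52 and 1.83 RPKM in the band libraries (change 1.32 ± 0.14, adjusted p = 0.00521), and Lgals3 (galectin-3), a macrophage lectin, was at 1.01 and 1.16 RPKM in the sham and 2.88 and 3.24 RPKM in the band libraries (change 0.96 ± 0.12, adjusted p = 0.00847). Ccl7 and S100a9 rose from under 2 RPKM in sham, S100a9 at 0.653 and 1.52 RPKM in sham against 4.88 and 3.40 RPKM in band. Ccl7 and Spp1 entered the test only through the band libraries. Beside these, 15 macrophage and leukocyte markers had a median change of 0.39, and the 20 markers in the table summed to 371 to 379 RPKM in sham and 403 to 471 in band. Only Cd52, at 14.8 and 13.4 RPKM in sham against 27.3 and 22.1 RPKM in band, and Fcgr1, at 1.17 and 1.10 RPKM in sham against 2.11 and 1.95 RPKM in band, were called, neither with a spread per group, and their part in the inflammatory calls was not tested.

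Of 11 genes in a list of the interleukin 6 family, STAT3, its inhibitors and other genes such as Fgl2, 3 rose and none fell. With a spread per group 2 were called, without sham 1 or without sham 2 it was 1, and in the 4 TRAP libraries alone none. The share of all genes tested that rose was 2.82%. Socs3, the feedback inhibitor of STAT3 signalling, was at 1.35 and 1.83 RPKM in the sham and 6.69 and 6.43 RPKM in the band libraries (change 1.55 ± 0.11, adjusted p = 0.00137). Stat3 was at 8.24 and 7.61 RPKM in the sham and 11.9 and 13.2 RPKM in the band libraries (change 0.60 ± 0.10, adjusted p = 0.0203), and Fgl2, a secreted fibrinogen-like protein, changed by 0.93 ± 0.14. Among 16 immediate early transcription factors, 7 rose and none fell, and 2 were called with a spread per group, 1 without sham 1, 2 without sham 2 and none in the 4 TRAP libraries alone. Atf3, a stress-induced repressor, was at 1.78 and 1.53 RPKM in the sham and 5.49 and 5.48 RPKM in the band libraries (change 1.29 ± 0.11, adjusted p = 0.00231), and Btg2, an antiproliferative gene, was at 4.98 and 6.01 RPKM in the sham and 12.1 and 11.7 RPKM in the band libraries (change 0.99 ± 0.10, adjusted p = 0.00481). Myc changed by 0.87, Egr1 by 0.74 and Junb by 0.67. Myc and Fosl2 entered the test only through the band libraries.

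Growth factor and matrix genes rose in part, where 2.82% of all genes tested rose and 2.08% fell. Of 22 growth factors and binding proteins, 6 rose and none fell, 5 of them with a spread per group: Ctgf, Fstl3, Cyr61, Gdf15 and Hbegf. Fstl3 entered the test only through the band libraries. Without sham 1 or without sham 2 only 1 growth factor gene was called, and in the 4 TRAP libraries alone none. Fstl3, a binder of activins, was at 0.332 and 0.477 RPKM in the sham and 2.58 and 2.28 RPKM in the band libraries (change 1.29 ± 0.11, adjusted p = 0.00246), Cyr61, a matricellular relative of Ctgf, at 15.2 and 15.3 RPKM in the sham and 25.5 and 31.1 RPKM in the band libraries (change 0.85 ± 0.11), and Gdf15, a stress hormone of the TGF-beta family, at 2.58 and 2.63 RPKM in the sham and 5.85 and 4.88 RPKM in the band libraries (change 0.82 ± 0.11). Tgfb2 rose by 0.75, while Tgfb1 was at 13.7 and 13.4 RPKM in sham against 13.8 and 14.05 RPKM in band. Of 28 extracellular matrix genes, 4 rose and 1 fell, with 1 called higher and none lower without sham 1 or without sham 2. Besides Timp1 and Thbs4, Col8a1, a short-chain collagen, was at 1.30 and 1.32 RPKM in the sham and 4.55 and 3.55 RPKM in the band libraries (change 1.12 ± 0.13, adjusted p = 0.00609), and the crosslinking enzyme gene Loxl1 changed by 0.42. The inhibitor gene Timp2 fell (change -0.39 ± 0.08). The fibrillar collagens were not called, with Col1a1 at 10.6 and 10.2 RPKM in sham against 13.02 and 11.5 RPKM in band and Col3a1 at 12.8 and 14.5 RPKM in sham against 14.2 and 8.60 RPKM in band. The sum over 16 fibroblast markers was 297 to 314 RPKM in sham and 212 to 282 in band, and 3 of the 13 tested fell: Fbln1 (change -0.68 ± 0.10), Gsn (-0.61 ± 0.10) and Islr (-0.52 ± 0.08), none of them called with a spread per group, without sham 1 or without sham 2.

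The calls among genes of excitation were falls, beside 2.08% of all genes tested that fell. Of 23 genes that have been reported lower under pressure overload, only Kcnip2 was called. Kcnip2, the accessory subunit of the transient outward potassium current, was at 90.9 and 90.9 RPKM in the sham and 53.1 and 62.3 RPKM in the band libraries (change -0.65 ± 0.10, adjusted p = 0.0177). The median of that list was -0.14. Atp2a2, the calcium pump of the sarcoplasmic reticulum, was at 889 and 949.6 RPKM in sham against 793 and 614 RPKM in band, Ryr2, its release channel, at 7.07 and 7.82 RPKM in sham against 8.19 and 4.05 RPKM in band, and Ppargc1a, a regulator of mitochondrial genes, at 3.63 and 4.23 RPKM in sham against 3.86 and 2.02 RPKM in band, none of them called. Among 26 calcium handling and ion channel genes, 3 fell and none rose: Kcnip2, the sodium channel subunit gene Scn4b at 7.53 and 7.81 RPKM in sham against 4.07 and 4.04 RPKM in band (change -0.78 ± 0.09, adjusted p = 0.00774) and the pacemaker channel gene Hcn2 at 9.58 and 10.9 RPKM in sham against 3.94 and 6.27 RPKM in band (change -0.91 ± 0.17, adjusted p = 0.0367). None of the 3 was called with a spread per group, without sham 1, without sham 2 or in the 4 TRAP libraries alone.

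None of 27 fatty acid oxidation genes, 31 nuclear genes of oxidative phosphorylation or 20 citric acid cycle genes was called in either direction by limma, with medians of -0.07, -0.01 and -0.06. Cpt1b, the muscle enzyme that admits fatty acids to mitochondria, was at 2.29 and 2.44 RPKM in sham against 2.56 and 2.46 RPKM in band, and Acadm, a dehydrogenase of beta-oxidation, at 425 and 419 RPKM in sham against 413 and 378 RPKM in band. Of 23 genes of glucose uptake and glycolysis, 2 rose, neither of them called without sham 1 or without sham 2. The share of all genes tested that rose was 2.82%. Pfkp, the platelet-type phosphofructokinase, was at 6.72 and 6.31 RPKM in the sham and 14.1 and 15.4 RPKM in the band libraries (change 1.07 ± 0.13, adjusted p = 0.00741). The row named Gapdh was at 20.3 and 20.6 RPKM in the sham and 151 and 64.03 RPKM in the band libraries, where the band libraries also differed from each other, and this gene has many pseudogenes with which its reads may be shared. The 15 mitochondrially encoded genes had a median of -0.82, made up of -0.38 in band 1 and -1.44 in band 2. None of the 15 was called, and the sham libraries differed from each other too, with mt-Co1 at 391 and 629 RPKM in sham against 245 and 100.3 RPKM in band and mt-Nd4 at 96.99 and 292 RPKM in sham against 137 and 44.2 RPKM in band.

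Genes of the translation machinery were called in both directions. Among 28 cytosolic translation factors, 3 rose and 1 fell, beside 2.82% and 2.08% of all genes tested, and none was called with a spread per group, without sham 1 or without sham 2. Eif4ebp1, the repressor of the cap-binding factor, was at 286 and 341 RPKM in the sham and 494 and 467 RPKM in the band libraries (change 0.62 ± 0.10, adjusted p = 0.0198), and Eef2k, the kinase that slows elongation, rose with the helicase gene Eif4a1 by 0.53 and 0.50. Eif1, which helps select the start codon, was at 758 and 813 RPKM in the sham and 554 and 575 RPKM in the band libraries (change -0.48 ± 0.08, adjusted p = 0.0235). None of 20 aminoacyl-tRNA synthetase genes was called. Of 85 cytosolic ribosomal protein genes 6 rose and 2 fell. The rises numbered 1 with a spread per group, 1 without sham 1 and 1 without sham 2, and none in the 4 TRAP libraries alone. Rpl27 was at 63.5 and 68.2 RPKM in the sham and 179 and 149.8 RPKM in the band libraries (change 1.30 ± 0.11, adjusted p = 0.00246), and Rps2 at 40.4 and 38.3 RPKM in the sham and 20.5 and 22.4 RPKM in the band libraries (change -0.85 ± 0.08, adjusted p = 0.0038). Rpl3l, the muscle paralog of Rpl3, was at 434 and 423 RPKM in the sham and 259.5 and 299 RPKM in the band libraries (change -0.62 ± 0.09, adjusted p = 0.0134). Ribosomal protein genes have many processed pseudogenes, so their separate values are uncertain.

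Among markers of other cell types, a single epicardial gene was tested, Aldh1a2, which makes retinoic acid, and it rose from 0.661 and 0.570 RPKM to 3.81 and 3.09 RPKM (change 1.46 ± 0.12, adjusted p = 0.00225), having entered the test only through the band libraries. Of 20 endothelial markers, Cldn5, a tight junction protein, was called (change -0.44 ± 0.09, adjusted p = 0.0464), not with a spread per group. The share of all genes tested that fell was 2.08%. The endothelial markers summed to 1410 to 1433 RPKM in sham and 1252 to 2074 in band, most of the width lying in Fabp4 at 879 and 876 RPKM in sham against 1603 and 785 RPKM in band. None of 10 smooth muscle and pericyte markers was called, and none of 7 atrial genes. The skeletal myosin light chain gene Myl1 was at 8.56 and 8.27 RPKM in the sham and 18.7 and 23.4 RPKM in the band libraries (change 1.22 ± 0.12, adjusted p = 0.004).

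**Figure D3:**
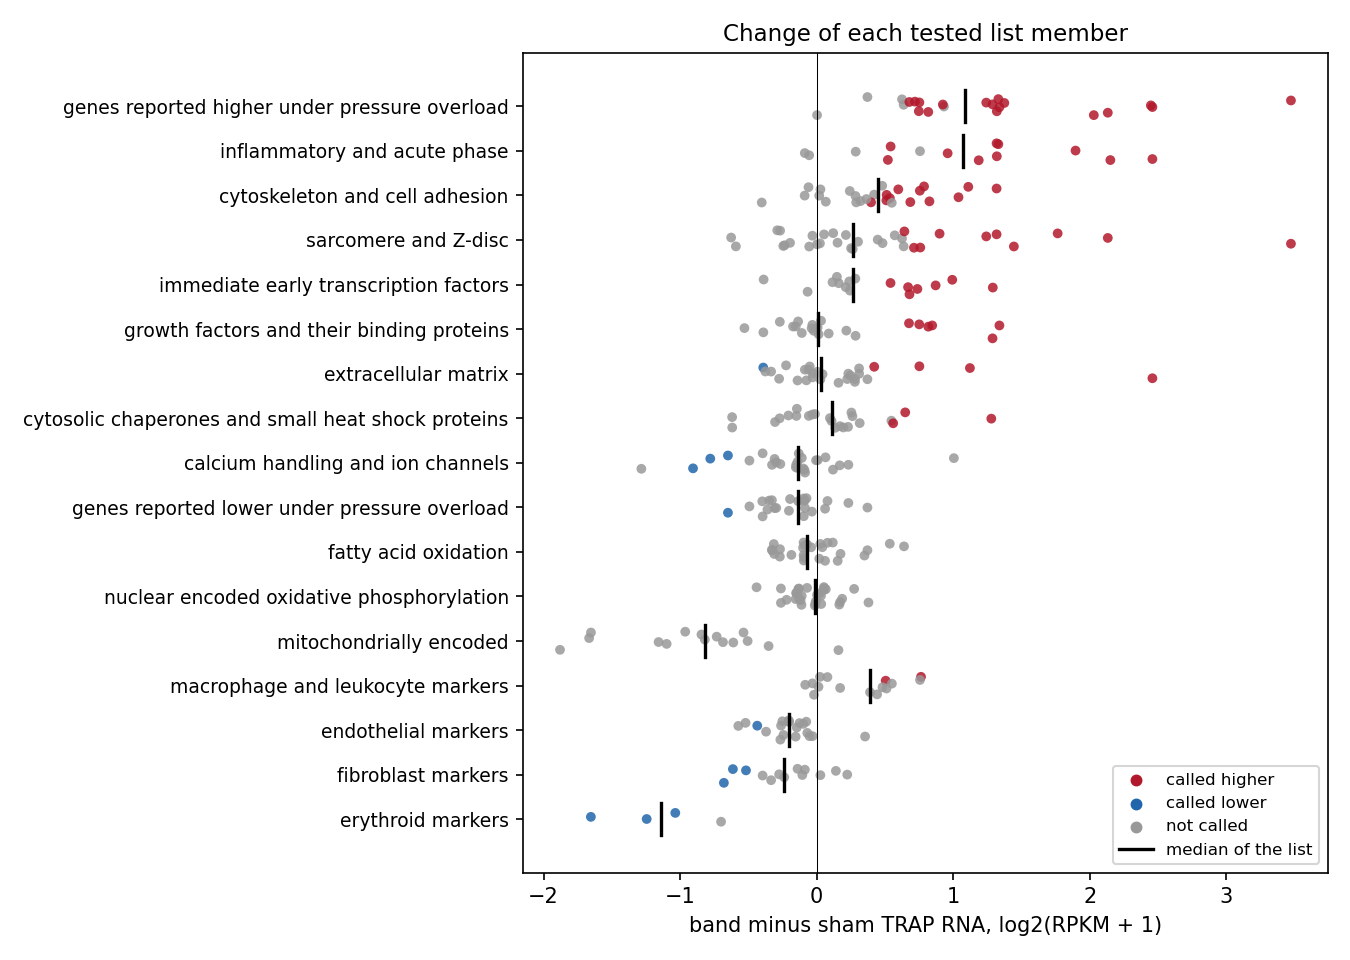
Change of each tested member of 17 gene lists between band and sham TRAP RNA on the log2(RPKM + 1) scale, with called genes in red (higher) or blue (lower), uncalled genes in grey and the median of each list as a black bar. The pressure overload and inflammatory lists have medians of 1.09 and 1.07, and the 15 mitochondrially encoded genes lie mostly below 0 with no call.

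Outside the lists and the ranking, a few further genes were picked out after their values had been seen. Mt2, a metallothionein, was among the most abundant genes that rose, at 1162 and 1186 RPKM in the sham and 3007 and 2112 RPKM in the band libraries (change 1.10 ± 0.17, adjusted p = 0.0171), and stood at 353 RPKM in the unoperated library, below both sham values. Nrap, which anchors new myofibrils, was at 43.5 and 41.4 RPKM in the sham and 77.6 and 84.99 RPKM in the band libraries (change 0.92 ± 0.10), and Cd63, a membrane protein of late endosomes, at 167 and 169.6 RPKM in the sham and 306 and 312 RPKM in the band libraries (change 0.87 ± 0.08). Of the genes that fell, Gadd45a, a stress and cell cycle gene, was at 7.92 and 8.60 RPKM in the sham and 3.94 and 3.69 RPKM in the band libraries (change -0.94 ± 0.08, adjusted p = 0.00246), while its relative Gadd45g rose to 30.2 and 44.2 RPKM from 12.1 and 11.7 (change 1.54 ± 0.16). All 5 were called with a spread per group and none in the 4 TRAP libraries alone, and of the 5 only Gadd45a was called both without sham 1 and without sham 2.

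Some genes that separated the 2 band libraries had no call. Trdn (triadin), which anchors the calcium release complex, was at 42.2 and 67.9 RPKM in the sham and 71.4 and 5.93 RPKM in the band libraries, and Nexn (nexilin), a Z-disc actin binder, at 46.03 and 89.7 RPKM in the sham and 137 and 11.97 RPKM in the band libraries. Uqcrb, a subunit of respiratory complex III, was at 161 and 368 RPKM in the sham and 535 and 45.2 RPKM in the band libraries. In each case band 1 was above both sham libraries and band 2 below both, and the adjusted p was 0.486, 0.769 and 0.78. The unoperated library was low for all 3, with 12.7, 7.74 and 38.4 RPKM. These 3 were also picked after their values had been seen.

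The change on ribosomes was set beside the change in input RNA. In the input libraries 245 of the same 9865 genes were called higher with banding (2.48%) and 174 lower (1.76%) by the same fit. Of the 278 genes higher in TRAP RNA, 165 were also called higher in input, which is 59.4% of the TRAP calls and 67.3% of the input calls. Of the 205 lower genes, 95 were also called lower in input, 46.3% of the TRAP calls and 54.6% of the input calls. No gene was called in opposite directions. The input change had the same sign for 274 of the 278 and 191 of the 205. How often the signs matched over all genes tested was not counted, so these counts are not read as particular to the called genes. The median input change was 0.56 over the genes called higher in TRAP, where the TRAP median was 0.69. It was -0.48 over those called lower, where the TRAP median was -0.63. These genes were chosen by their TRAP change, so a larger TRAP median can follow from the choice alone. Both changes of a gene were also judged with the same spread, which raises the overlap of the calls. Across the 9865 genes, which are not independent replicates, Pearson's r between the 2 changes was 0.631. For Ankrd2 the input change was 3.58 ± 0.27 beside 3.47 ± 0.27 on ribosomes, for Nppb 1.92 ± 0.10 beside 2.03 ± 0.10, for Timp1 2.71 ± 0.13 beside 2.46 ± 0.13, and for Fhl1 2.24 ± 0.11 beside 2.13 ± 0.11. All named rises but Gm12337, 4930412F15Rik and Gm10086 were called higher in input. Of the named falls, Gm10263, Snhg9, Rtn4r, Gm10222 and Inmt were called lower in input. Gm13772, Gm6265, Gm12191, Hist4h4, Gm5566, Hba-a1 and Rpl21-ps11 were not called there. Rpl21-ps11 changed by 0.50 in input beside -1.19 on ribosomes.

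**Figure D4:**
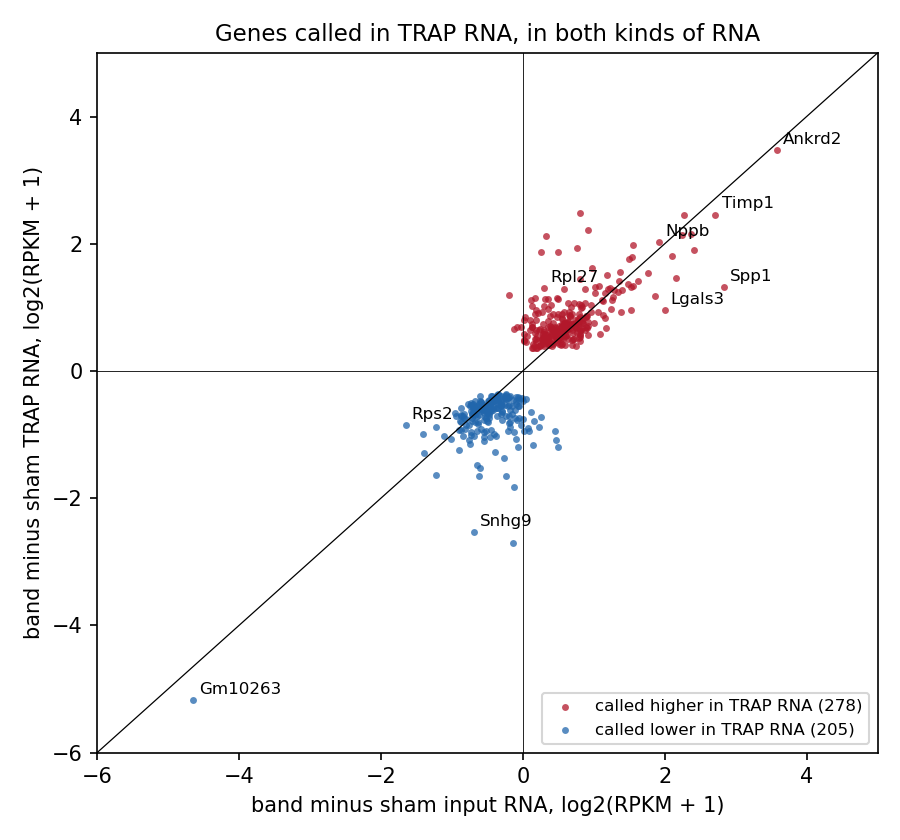
Change with banding in input RNA (horizontal axis) and in TRAP RNA (vertical axis), both on the log2(RPKM + 1) scale, for the 278 genes called higher (red) and 205 called lower (blue) in TRAP RNA, with the line of equal change. Most points lie in the same-sign quadrants, 274 of 278 and 191 of 205, a share that was not counted over all genes tested. Spp1 and Lgals3 lie to the right of the line while Snhg9 and Rpl27 lie farther from 0 in TRAP than in input RNA. The scale understates changes of genes at low levels, such as Spp1 and Lgals3 in TRAP RNA.

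The difference between the TRAP and the input change was tested for each gene in the same fit, and 0 genes were called by limma. The lowest adjusted p was 0.138, and 464 genes (4.7%) had an unadjusted p under 0.05, 122 of them among the 483 genes called in TRAP. Those 483 were chosen by their TRAP change, which is part of the difference tested. Without band 1 the number of genes called for this difference was 241, and without band 2 it was 107. Among genes already described, Spp1 rose by 1.32 on ribosomes and by 2.83 in input (limma adjusted p of the difference = 0.171), and Lgals3 by 0.96 and 2.00 (limma adjusted p = 0.277). Both genes were low in TRAP RNA, Spp1 under 1 RPKM in sham, and the log2(RPKM + 1) scale understates changes at low levels. Their smaller values on ribosomes therefore do not show a smaller fold change there. Rpl27 changed by 1.30 on ribosomes and by 0.30 in input (limma adjusted p = 0.277), and Rps2 by -0.85 and -1.65 (limma adjusted p = 0.206). Snhg9 changed by -2.53 and -0.69 (limma adjusted p = 0.138). Each of the 5 had an unadjusted p under 0.05, and none passed the threshold after adjustment over all genes.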

How the data were processed

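Input and TRAP RNA of mouse heart were sequenced, and 8 listed samples (endings l1 and l2, unexplained in the labels) correspond to the 4 TRAP libraries compared. The authors deposited 1 table of RPKM values per gene for 12 libraries, each mapped by its column name, with no column of another sample. The submitters' processing notes name CASAVA 1.8.2, TopHat 1.4, HTSeq 0.5.3 and build NCBIM37. Per the labels' protocols, pooled RNA was poly(A) selected and copied with random primers, with no step that keeps strand. All 233410 positive values were whole reads within 0.02 of a read, which gave the depths.

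Genes at 1 RPKM in at least 2 of the 4 libraries were tested on log2(RPKM + 1), pseudocount 1, with limma 3.58.1 in R 4.3.3 (lmFit and eBayes with trend, two-sided, 12 libraries, a mean per group, 4 residual and 3.04 prior degrees of freedom). Changes on this scale understate those of low genes. The script was tested on simulated data with an equal spread in every group, so that test does not cover the wide band pair. Genes were named by the gap between the nearest libraries of the 2 groups, 12 in each direction, and list members by call and list order. Members and lists were chosen with earlier results of these data known. A spread per group used limma's array weights, 1 per group, over the 8 operated CAG libraries. Alternatives covered pseudocounts, filters, scaling, voom on the recovered reads, blocks and left-out libraries. Figures were drawn with matplotlib. RefSeq promoter windows were matched by symbol or a unique synonym.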

Additional observations from a re-analysis of the deposited data

How the results depend on the processing

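With banding against sham in TRAP RNA, 278 genes were higher and 205 lower. The counts stayed within 1.5 times of these under pseudocounts of 0.1 (280 and 193) and 10 (250 and 195), a filter of 5 RPKM (275 and 200), quantile normalization (307 and 179), median ratio scaling (283 and 160), rescaling without the 50 most abundant genes (257 and 254) and voom (275 and 190). With no filter on low values, 156 were higher and 91 lower among 21831 genes. The 4 TRAP libraries alone gave 10 and 3, and the weights of the fit with a spread per group gave 83 and 45. Leaving out 1 library at a time gave 28 to 1148 higher and 10 to 1183 lower genes, and 0 to 241 genes whose TRAP change differed from the input change. The library numbers are shared only as names: with the replicate block over the 8 operated libraries 173 genes were higher and 106 lower, and within the 4 TRAP libraries the replicate block left 0 and 0. The deviations of libraries with the same number had a correlation of -0.471 across genes, and the crossed replicate block, chosen after seeing the data, gave 166 and 120. The test of the difference from input was not run for the 4 TRAP libraries alone or the crossed block, and gave 0 genes in every other fit that kept all libraries. With 2 libraries a group, the wide band pair limits what can be called.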
